A study of Mus musculus with 4 samples.

Results

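The growth arrest and p53 target genes Gadd45a, Gadd45b, Gadd45g, Cdkn1a, Mdm2, Ccng1, Btg2, Sesn1 and Sesn2 were examined in the liver of diet-induced obese (DIO) mice given GALP (galanin-like peptide, a hypothalamic neuropeptide). The members were every non-control probe that carries 1 of these 9 names, which gave 17 probes in 35 spots on each array, among the 26518 gene names of the array. Male C57BL/6 mice (C57BL/6J in the tissue labels), 8 weeks old when bought, ate a high-fat diet for 14 weeks and weighed at least 40 g. They were then acclimatized with daily saline into the nose, and the high-fat diet continued throughout dosing. Dosing was 2 µL into the nose daily for 11 days, with either GALP or saline. The GALP was porcine GALP (1-60), given in the labels as 1 nmol, in saline with 5% α-cyclodextrin. The liver RNA was pooled before hybridisation, from the 4 GALP mice that lost more weight (the greater weight loss pool), the 4 GALP mice that lost less (the less weight loss pool) and the 8 saline mice (the control pool). Both GALP pools were compared with the control pool on 2 dual-colour Agilent arrays with the Cy5 and Cy3 dyes exchanged. All 4 arrays lay on 1 slide.

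No member gene passed the rule of the methods as it was read here, but several differed in level between GALP and control on single arrays. Gadd45b was 1.35-fold the control by its brighter probe, while its dimmer probe was higher on all 4 arrays with the control at background on 3 of them. The log2 ratios of both Gadd45b probes and of Btg2 were smaller under another background correction (values beside each gene). That correction adds an offset of 50 to both channels, which by itself makes the log2 ratios of dim probes smaller. Cdkn1a was 1.53-fold the control in the greater weight loss pool and 1.12-fold in the less weight loss pool. Btg2 was 0.734-fold the control by 1 of its 3 probes, while Ccng1 was between 0.968-fold and 1.02-fold. Gadd45g was 0.778-fold the control in the greater weight loss pool and 1.16-fold in the less weight loss pool.

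The tumour suppressor p53 is a transcription factor that is stabilised by DNA damage and other stress. It binds paired copies of a short palindromic element near its target genes. Its targets stop the cell cycle (Cdkn1a, Btg2, Gadd45a), restrain p53 itself (Mdm2, Ccng1) or curb growth signalling through mTORC1 (Sesn1, Sesn2). Gadd45b and Gadd45g are related to Gadd45a but respond mainly to cytokines, hormones and stress kinases. In the liver, Cdkn1a, Btg2 and Gadd45b are known to rise quickly after partial hepatectomy and other injury, and the sestrins are known to respond to nutrients.

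The element that p53 reads is shown first, for the members with a pair or only a single copy of it next to a start site. A single copy is not the paired form that p53 binds. RefSeq promoter windows (GRCm38.p6) of 300 bases, from 250 bases before to 50 after a start site, were found for all 9 members (11 windows). The p53 consensus decamer, which reads the same on both strands, occurred without mismatch in 8.36% of all 32851 windows, and in 5 of the 11 member windows. A pair of decamers without a spacer, with up to 1 mismatch in 20 bases, occurred in 0.0883% of all windows. Among the members it was present in the windows of Cdkn1a and Ccng1. In the following lines each stretch is written on the strand of the gene, with the decamer or the pair in capitals, and each pair includes 1 base that does not match the element.
Cdkn1a, chr17:29090908-29090967: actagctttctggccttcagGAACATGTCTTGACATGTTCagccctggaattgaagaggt
Ccng1, chr11:40755442-40755501: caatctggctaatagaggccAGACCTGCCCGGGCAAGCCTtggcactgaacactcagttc
Gadd45a, chr6:67037418-67037467: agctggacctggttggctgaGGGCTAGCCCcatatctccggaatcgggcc
Mdm2, chr10:117710915-117710964: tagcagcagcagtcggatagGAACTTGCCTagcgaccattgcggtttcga
Sesn1, chr10:41887246-41887295: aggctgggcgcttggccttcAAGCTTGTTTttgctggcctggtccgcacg

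The Cdkn1a pair began 51 bases before the upstream of its 2 listed start sites, and the Ccng1 pair began 195 bases before the start site. The Cdkn1a window held another decamer, which began 73 bases before the same start site. The decamers of Gadd45a and Mdm2 began 40 and 186 bases before the start site. That of Sesn1 began 173 bases before the downstream of its 2 listed start sites. The windows of Gadd45b, Gadd45g, Btg2 and Sesn2 and the other windows of Cdkn1a and Sesn1 held no exact decamer. This says only that these letters are not in these windows. A match is a description of the sequence, and p53 binding was not measured. Both genes with the pair were well above background on every array, and their ratios differed. Cdkn1a was higher than the control on 4 of 4 arrays, and the Ccng1 probes stayed within 0.16 of 0 on the log2 scale.

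The probes are 60-base oligonucleotides, and the files place them on mm9. The files do not say whether a probe lies in an exon, intron or UTR. Probes of 1 gene gave different values, so sequences are shown for probes of Gadd45b, Btg2, Mdm2 and Sesn1. Those of Btg2, Mdm2 and Sesn1 have at least 1 reading frame without a stop codon, and for Gadd45b the 25 bases up to the first stop (capitals) of the frame from the second base are printed. An open frame in so short a sequence does not place a probe.
Gadd45b probe 1, chr10:80394367-80394391: ctatatctctctagaggaacgcTGA
Btg2 probe 3, chr1:135974181-135974240: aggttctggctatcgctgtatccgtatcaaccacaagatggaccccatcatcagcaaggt
Mdm2 probe 2, chr10:117129725-117129784: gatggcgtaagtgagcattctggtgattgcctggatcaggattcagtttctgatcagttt
Sesn1 probe 2, chr10:41627097-41627156: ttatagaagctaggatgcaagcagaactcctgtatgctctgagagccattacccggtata
Sesn1 probe 3, chr10:41618206-41622368: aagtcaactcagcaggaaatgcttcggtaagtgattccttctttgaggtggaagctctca

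The positions of Sesn1 probe 3 span 4163 bases for a 60-base sequence, so its bases are not consecutive in the genome. The other 16 member probes each lie on 60 consecutive bases. Probes of a gene are numbered here from the brightest to the dimmest.

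Liver identity and signal were examined across all channels. All 7 hepatocyte markers were well above background in all 8 channels, and 40.5% to 46.7% of the spots in a channel were well above background. The pools also differed in transcripts of neighbouring organs. Of 9 stomach and pancreas markers, Gkn2 and Tff1 (secreted by the stomach) were called lower in both GALP pools. The pancreatic enzyme genes Cpa1, Cela1, Pnlip and Amy2a5 and the trefoil peptide gene Tff2 had log2 ratios from -3.36 to -3.89 in the greater weight loss pool and from 0.49 to 0.84 in the less weight loss pool. The summed signal of this list was 4411 to 6727 in the greater weight loss pool, 88230 to 94130 in the less weight loss pool and 56067 to 74524 in the control pool, and 1 of its genes (Gkn1) was at background in all channels. The part of these transcripts in the member ratios was not tested. The macrophage scavenger receptor Marco and the endothelial hyaluronan receptor Lyve1 were called higher in both GALP pools. Marco is 1 of 7 Kupffer cell (liver macrophage) markers, of which 4 had a mean log2 ratio above 0 and 3 below (median 0.14). Lyve1 is 1 of 6 sinusoidal endothelial markers, with 4 means above 0 and 2 below (median 0.10). No gene was called on the lists of hepatocyte, stellate cell, bile duct cell or lymphocyte and neutrophil markers. In pooled tissue, a change in the number of cells of a type and a change in RNA per cell cannot be told apart.

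The methods select genes that changed in both comparisons without giving the number of arrays that must pass, so the rule was read strictly here. A member was called if all 4 arrays gave it the same direction and a p-value below 0.01 from Feature Extraction, the scanner software, and if both pools passed a fold of 1.5 (higher) or 0.75 (lower). This rule called 24 of 41037 probes higher (0.0585%) and 54 lower (0.132%), and none of the 17 member probes. Without the p-value it gave 154 probes higher (0.375%) and 360 lower (0.877%), and 1 member probe, Gadd45b probe 2, was among the higher ones. By limma on the 2 pool ratios no probe passed an adjusted p of 0.05, in either direction, and the smallest adjusted p of any probe was 0.374. At an unadjusted p under 0.05, limma gave 2049 probes higher (4.99%) and 2710 lower (6.6%). Among the members 4 of 17 probes (23.5%) were higher at that level, namely Gadd45a, both Gadd45b probes and Sesn1 probe 2, and 2 (11.8%) were lower, both of them Mdm2 probes. Of these 6, only Gadd45b probe 2 had the same direction on all 4 arrays, and the 2 dye orientations of a pool are averaged before this test.

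**Figure D1:**
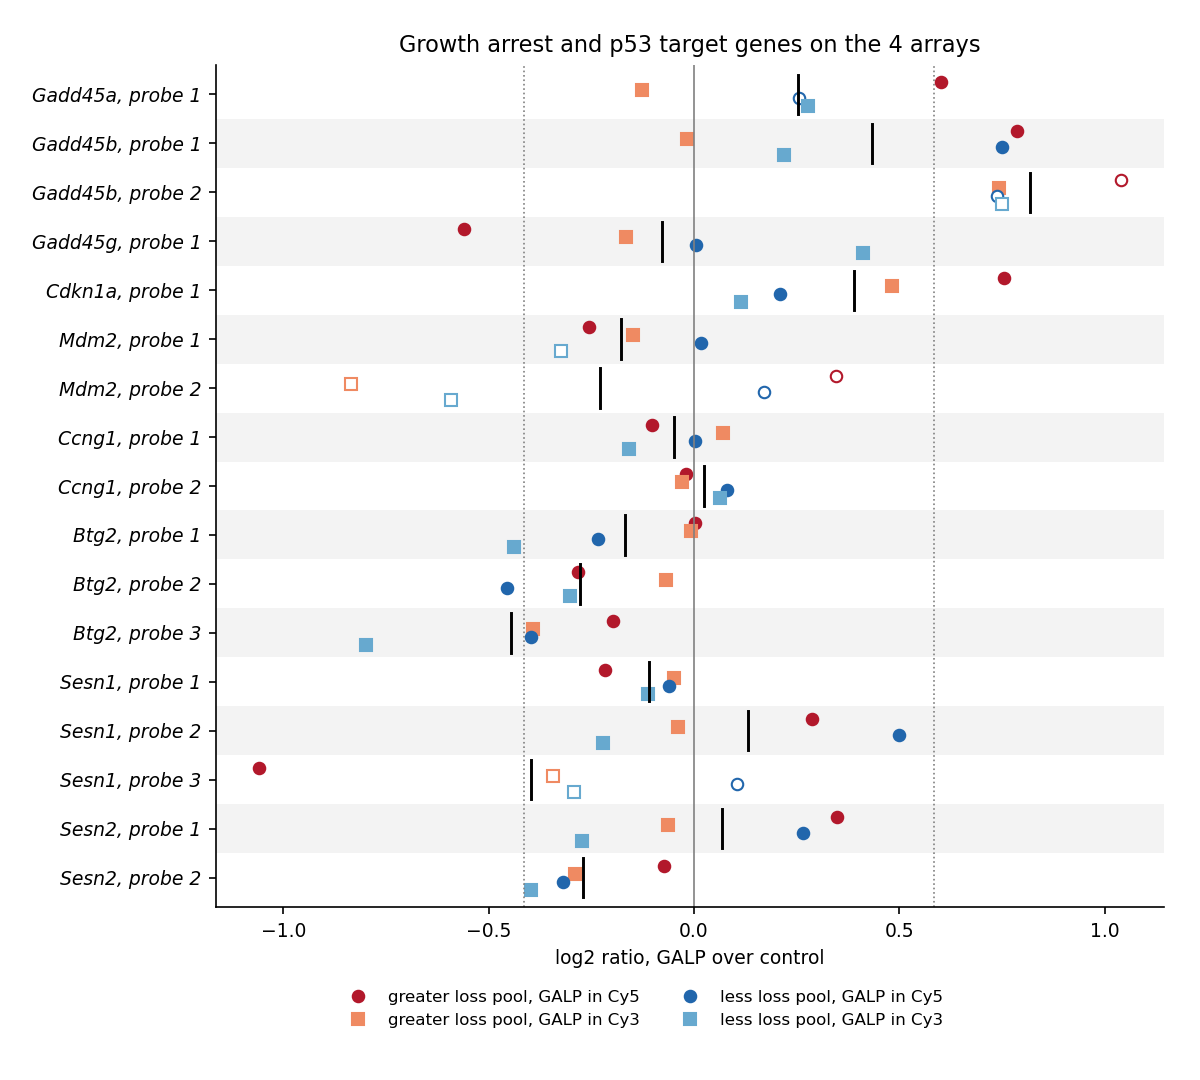
Log2 ratio of GALP over control (x axis) for each of the 17 member probes (rows) on the 4 arrays. Colour gives the pool and shape the dye of the GALP extract, open symbols mark arrays on which GALP or control was not well above background, black bars are the mean of the 2 pools and dotted lines mark folds of 1.5 and 0.75. Cdkn1a and Gadd45b probe 2 lie above 0 on all 4 arrays, and no probe has all 4 symbols beyond a dotted line with filled symbols throughout.

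Gadd45b, a stress sensor that activates the MAP3K4 kinase, had 2 probes on mm9, at chr10:80394367-80394426 and at chr10:80394890-80394949. The signal of probe 1 in the greater weight loss pool was 156 against 90.4 in the control with GALP in Cy5, and 91.5 against 92.7 with GALP in Cy3. In the less weight loss pool the signal was 130 against 77.5 with GALP in Cy5, and 109 against 93.3 with GALP in Cy3. GALP was thus higher on 3 of 4 arrays, and both clear differences were on the arrays with GALP in Cy5. The log2 ratios were 0.79 and -0.018 for the greater weight loss pool and 0.75 and 0.22 for the less weight loss pool, in the same order of dyes. The mean log2 ratio was 0.43 ± 0.071 (SD, n = 2 GALP pools), with an adjusted p of 0.383 by limma. With normexp background correction and loess the mean was 0.10.

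Gadd45b probe 2 was dimmer but had the same direction on all arrays. Its signal was 53.2 against 25.9 and 107 against 63.9 in the greater weight loss pool, and 73.3 against 44.0 and 36.5 against 21.7 in the less weight loss pool. The GALP signal was well above background on 3 arrays, and the control signal on 1. The log2 ratios were 1.04 and 0.74 in the greater weight loss pool and 0.74 and 0.75 in the less weight loss pool. In the less weight loss pool the control was not well above background on either array and GALP was so on 1, so no fold is given for that pool. The mean of the listed log2 ratios, 0.82 ± 0.10 (SD, n = 2 GALP pools, adjusted p of 0.374 by limma), rests on these background signals and is no measured fold. With normexp background correction and loess it was 0.080. On 1 of the 4 arrays the p-value from Feature Extraction fell below 0.01 (0.00291, greater weight loss pool with GALP in Cy3).

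Gadd45a, the p53-regulated member of the family, had 1 probe on mm9, at chr6:66985376-66985435. Its signal was 78.3 against 51.7 and 48.3 against 52.7 in the greater weight loss pool. In the less weight loss pool it was 35.9 against 30.1, both not well above background, and 165 against 136. GALP was higher on 3 of 4 arrays, and the same pool gave a signal of 35.9 on 1 array and 165 on the other. The mean log2 ratio was 0.25 ± 0.021 (SD, n = 2 GALP pools), with an adjusted p of 0.374 by limma. It was 0.43 over the arrays with GALP in Cy5 and 0.076 over those with GALP in Cy3. With normexp background correction and loess the mean was 0.015.

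Gadd45g, which is induced by cytokines and hormones, had 1 bright probe on mm9, at chr13:51943733-51943792. With GALP in Cy5 its signal in the greater weight loss pool was 3949 against 5824, and with GALP in Cy3 it was 4171 against 4676. In the less weight loss pool it was 6514 against 6489 with GALP in Cy5, and 6289 against 4730 with GALP in Cy3. GALP was lower on both arrays of the greater weight loss pool and higher on both arrays of the less weight loss pool, on 1 of them by only 0.0054 on the log2 scale. The log2 ratios were -0.56 and -0.17, and 0.0054 and 0.41, which gave pool values of -0.36 and 0.21. The mean log2 ratio of -0.077 ± 0.40 (SD, n = 2 GALP pools) had an adjusted p of 1 by limma.

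**Figure D2:**
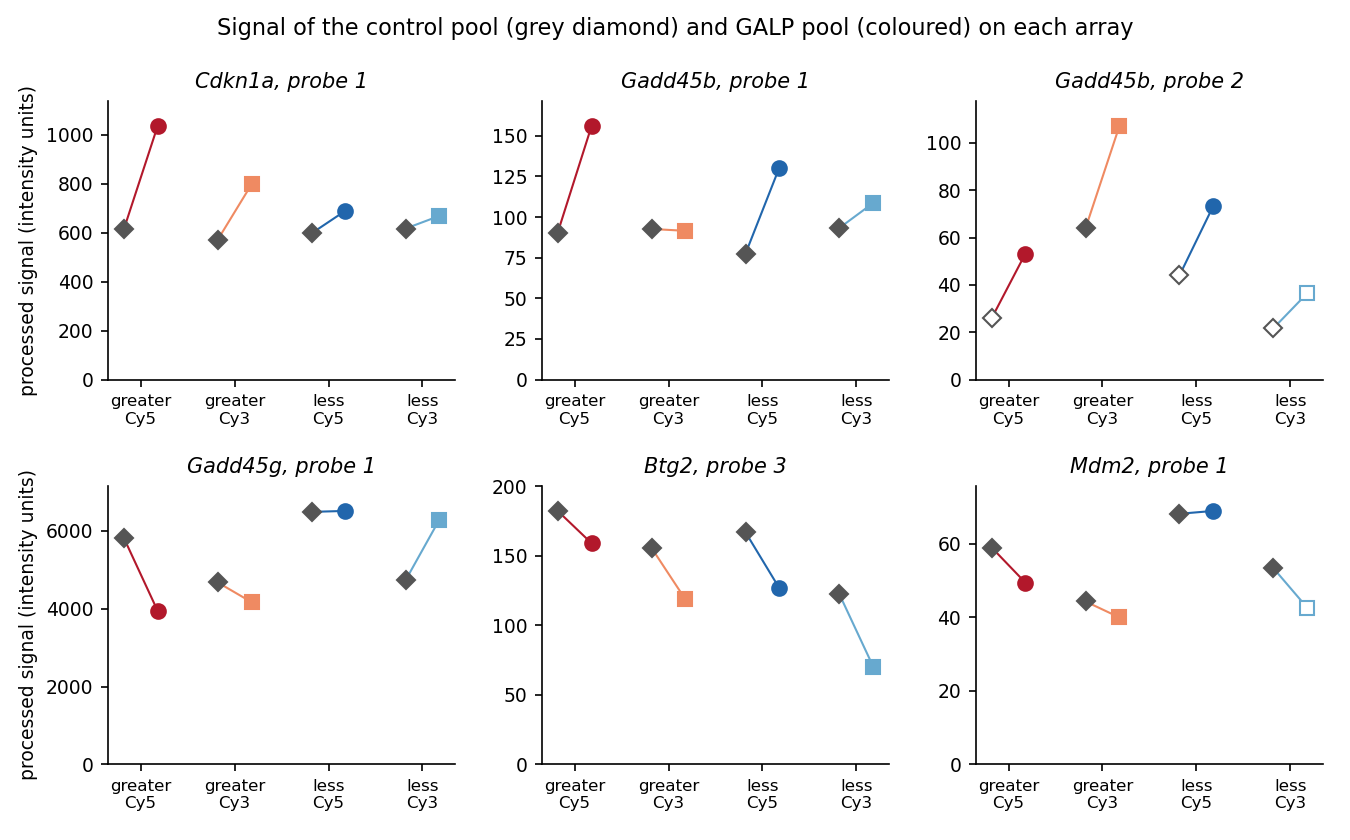
Processed signal in intensity units (y axis, from 0) of the control pool (grey diamonds) and the GALP pool (coloured symbols) on each array (x axis: pool and the dye of the GALP extract) for 6 member probes. Lines join the 2 channels of an array, and open symbols are not well above background. The Cdkn1a line is steepest in the greater weight loss pool, the Gadd45g lines run down in that pool and level or up in the other, and the Btg2 lines run down on all 4 arrays.

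Cdkn1a encodes p21, which inhibits cyclin-dependent kinases and holds cells before DNA replication. Its probe on mm9, at chr17:29237377-29237436, was printed in 10 spots on each array. The mean signal in the greater weight loss pool was 1036 against 613 with GALP in Cy5, and 798 against 571 with GALP in Cy3. In the less weight loss pool it was 690 against 598 with GALP in Cy5, and 669 against 617 with GALP in Cy3. GALP was higher on all 4 arrays, and the difference was larger in the greater weight loss pool.

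The spots showed the same order of the Cdkn1a ratios. With GALP in Cy5, the log2 ratios of the greater weight loss pool were 0.69 to 0.86 over 10 spots (median 0.74), and those of the less weight loss pool 0.12 to 0.30 over 10 spots (median 0.20). With GALP in Cy3, they were 0.34 to 0.59 over 9 spots (median 0.49) in the greater weight loss pool and -0.0061 to 0.22 over 10 spots (median 0.13) in the less weight loss pool. The spots of the 2 pools did not overlap, although the spots of an array are repeats of 1 hybridisation and not samples. The mean log2 ratio was 0.39 ± 0.32 (SD, n = 2 GALP pools), with an adjusted p of 0.702 by limma. The Feature Extraction p-value was 0.000629 and 0.0187 on the arrays of the greater weight loss pool, and 0.342 and 0.523 on those of the less weight loss pool.

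**Figure D3:**
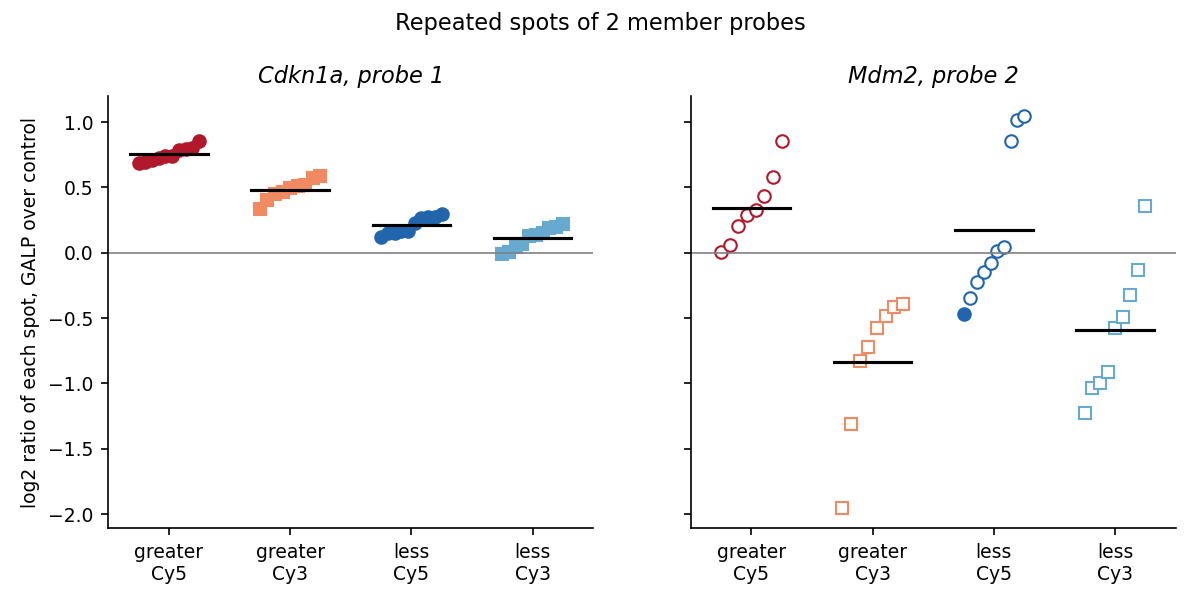
Log2 ratio of GALP over control of every spot used (y axis) for Cdkn1a and for Mdm2 probe 2 on the 4 arrays (x axis: pool and the dye of the GALP extract). Open symbols are spots with GALP or control not well above background, and black bars are means. The Cdkn1a spots of the greater weight loss pool lie at 0.34 or higher and those of the less weight loss pool at 0.30 or lower, while the Mdm2 means lie above 0 with GALP in Cy5 and below 0 with GALP in Cy3, with 5 of 10 spots on each side of 0 in the less weight loss pool with GALP in Cy5.

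Mdm2, the ubiquitin ligase that degrades p53 and is itself a p53 target, had 2 dim probes. Probe 1, on mm9 at chr10:117126278-117126337, gave signals of 49.4 against 58.9 and 39.9 against 44.3 in the greater weight loss pool, and 68.9 against 68.1 and 42.6 against 53.3 in the less weight loss pool. The mean log2 ratio was -0.18 ± 0.034 (SD, n = 2 GALP pools), and the adjusted p by limma was 0.402. Probe 2 was printed in 10 spots, of which 8 to 10 were used on an array, and its mean signals lay between 19.1 and 34.6. Its log2 ratios were 0.35 and 0.17 with GALP in Cy5 and -0.84 and -0.59 with GALP in Cy3, so the sign followed the dye and not the pool. The pool means of this probe, -0.25 and -0.21, were close to each other because each averages a positive and a negative array. Both extracts of the less weight loss pool comparison were at background for probe 2. In the greater weight loss pool only the extract in Cy5 was well above background on each array, GALP on 1 array and the control on the other. The ratios of probe 2 in both pools are thus values as listed and not measured differences.

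Ccng1 encodes cyclin G1, a p53 target that recruits a phosphatase to Mdm2. Both probes were bright, with signals between 1125 and 2098 in the GALP channels and between 1141 and 2096 in the control channels. Probe 1, on mm9 at chr11:40562427-40562486, had log2 ratios of -0.10 and 0.070 in the greater weight loss pool and 0.0020 and -0.16 in the less weight loss pool. Probe 2, on mm9 at chr11:40564413-40564472, had -0.020 and -0.029 in the greater weight loss pool and 0.080 and 0.064 in the less weight loss pool. The means were -0.048 ± 0.044 and 0.024 ± 0.068 (SD, n = 2 GALP pools). The 95% intervals of these means from limma were -0.21 to 0.12 and -0.23 to 0.28, and they leave out the spread of the control pool. The Feature Extraction error of a single ratio of these probes was 0.204 to 0.205, larger than any of their ratios.

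Btg2, an antiproliferative protein that brings deadenylases to mRNA, was lower than or level with the control by all 3 probes. Probe 3, on mm9 at chr1:135974181-135974240, gave signals of 159 against 182 and 119 against 156 in the greater weight loss pool, and 127 against 167 and 70.2 against 122 in the less weight loss pool. GALP was lower on all 4 arrays, with log2 ratios of -0.20, -0.39, -0.40 and -0.80. Probe 2, on mm9 at chr1:135973916-135973975, gave -0.28 and -0.068 in the greater weight loss pool and -0.46 and -0.30 in the less weight loss pool. Probe 1, on mm9 at chr1:135972094-135972153, gave 0.0025 and -0.0074 in the greater weight loss pool and -0.23 and -0.44 in the less weight loss pool. Each probe had the lower value in the less weight loss pool, in both dye orientations.

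The means of Btg2 were -0.45 ± 0.22, -0.28 ± 0.14 and -0.17 ± 0.24 for probes 3, 2 and 1 (SD, n = 2 GALP pools). The adjusted p by limma was 0.547, 0.570 and 0.702. With normexp background correction and loess the means were -0.089, -0.12 and -0.14. No Feature Extraction p-value of a Btg2 probe was under 0.01, and the smallest was 0.0118 for probe 3 in the less weight loss pool with GALP in Cy3. The 3 probes read the same transcript, so they are not separate samples.

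Sesn1 and Sesn2 encode sestrins, which sense leucine and restrain mTORC1 through the GATOR complexes. Sesn1 probe 1, on mm9 at chr10:41628000-41628059, had log2 ratios of -0.22 and -0.049 in the greater weight loss pool and -0.060 and -0.11 in the less weight loss pool. Sesn1 probe 2 gave 0.29 and 0.50 with GALP in Cy5 and -0.039 and -0.22 with GALP in Cy3, so its sign followed the dye. Sesn1 probe 3 was 64.2 against 134 on the array of the greater weight loss pool with GALP in Cy5, a log2 ratio of -1.06 with a Feature Extraction p-value of 9.12e-05. On the other 3 arrays it was not well above background in either channel, with signals between 12.3 and 29.3. The means were -0.11 ± 0.033 and 0.13 ± 0.010 for probes 1 and 2 (SD, n = 2 GALP pools), and the adjusted p by limma was 0.461 and 0.374. No mean is given for probe 3.

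Sesn2 had 2 probes with different patterns. Probe 1, on mm9 at chr4:132047974-132048033, had log2 ratios of 0.35 and 0.27 with GALP in Cy5 and -0.064 and -0.27 with GALP in Cy3, so its sign followed the dye. Probe 2, on mm9 at chr4:132048858-132048917, was lower on all 4 arrays, with -0.074 and -0.29 in the greater weight loss pool and -0.32 and -0.40 in the less weight loss pool. The signals of probe 2 were 472 against 497, 309 against 378, 415 against 517 and 367 against 483. The means were 0.069 ± 0.10 and -0.27 ± 0.12 (SD, n = 2 GALP pools), with an adjusted p of 0.706 and 0.536 by limma. The sestrin probes thus gave no single direction, and the signs of Sesn1 probe 2 and Sesn2 probe 1 followed the dye.

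Across the 17 member probes, 12 had a higher mean ratio on the arrays with GALP in Cy5 than on those with GALP in Cy3. The median absolute difference between the dye orientations was 0.18 for the member probes. It was also 0.18 over the 14445 probes that were well above background in all 8 channels. Of the 68 ratios of member probes and arrays, 6 had a Feature Extraction p-value under 0.01, over 5 probes, with 4 ratios higher and 2 lower. Over all probes and arrays 2.54% of the ratios were higher and 1.56% lower at that p-value. They were Gadd45b probe 1 on both arrays with GALP in Cy5, and Gadd45b probe 2, Gadd45g, Cdkn1a and Sesn1 probe 3 on 1 array each, all 4 in the greater weight loss pool.

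The pools with greater and less weight loss each consist of 1 extract, so the differences between them are given without a test, and both share the control pool. Gadd45g had the largest difference among the members that were well above background in all channels. Its log2 ratio was 0.57 higher in the less weight loss pool, with 0.57 in the arrays with GALP in Cy5 and 0.58 in those with GALP in Cy3. Cdkn1a was 0.46 lower in the less weight loss pool than in the greater weight loss pool (-0.54 and -0.37 by dye). Btg2 was lower in the less weight loss pool by 0.33, 0.20 and 0.30 for probes 1, 2 and 3. With normexp background correction and loess, the less minus greater values of these Btg2 probes were -0.14, -0.040 and -0.063. Under that setting the value was 0.49 for Gadd45g and -0.36 for Cdkn1a. The median absolute difference between the pools was 0.10 over the same 14445 probes, and 2.22% of them had a larger absolute difference than Gadd45g and 4.02% a larger one than Cdkn1a. Gadd45b probe 1 differed by 0.10 between the pools and Ccng1 by -0.062 and 0.096.

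**Figure D4:**
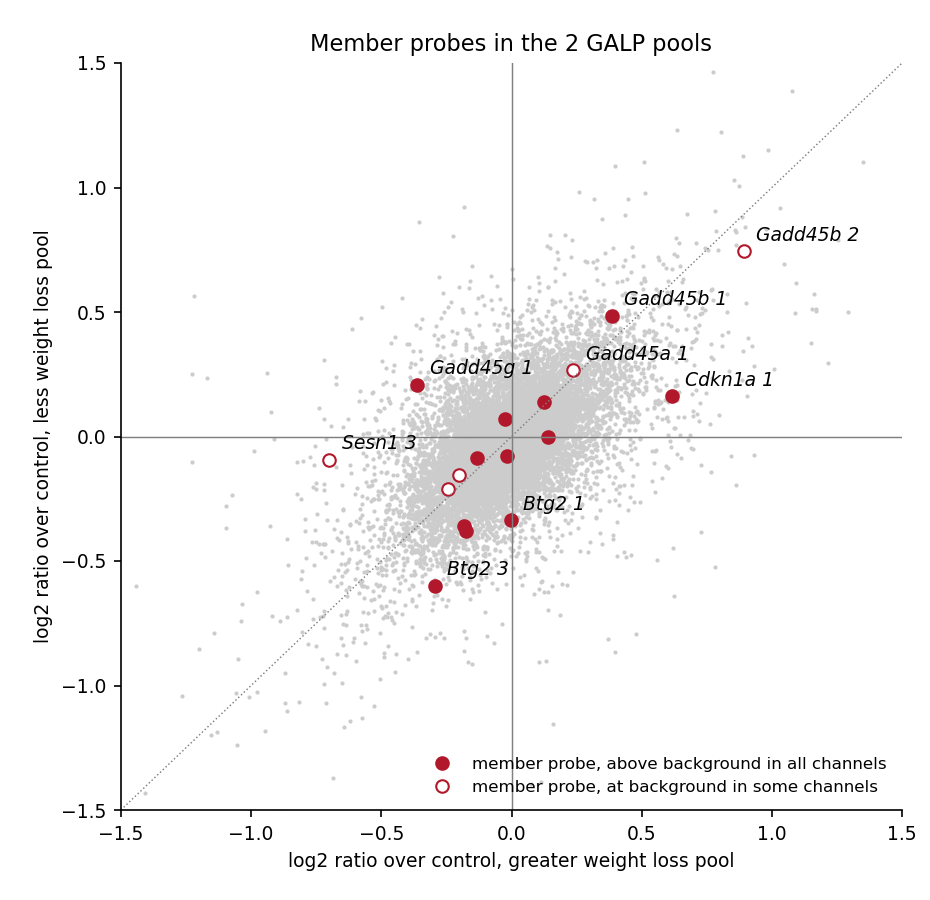
Mean log2 ratio over control of each member probe (red circles) in the greater weight loss pool (x axis) and the less weight loss pool (y axis). Open circles were at background in some channel, grey points are the 14445 probes well above background in all 8 channels (64 lie beyond the axes) and the dotted line marks equal ratios. Gadd45b lies near the line with positive values in both pools, Cdkn1a lies below the line at 0.62 and 0.16, and Gadd45g lies in the upper left at -0.36 and 0.21.

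The 9 members did not move together. By the brightest probe of each gene, 4 had a mean above 0 and 5 below 0, and the median log2 ratio was -0.048, against 0.0099 over the 16345 genes above background. By that probe, 1 member (Cdkn1a) was higher on all 4 arrays and 1 (Sesn1) was lower, while 9.90% and 10.7% of all genes were, also by 1 probe per gene. Over all 17 member probes, 2 were higher on all 4 arrays (Cdkn1a and Gadd45b probe 2) and 4 were lower. The lower ones were Sesn1 probe 1, Btg2 probes 2 and 3 and Sesn2 probe 2. The genes with patterns most like that of Btg2 probe 3, the member probe farthest from 0 among those well above background in all channels, were Nup93, N4bp2l2 and E2f2. Their Euclidean distances from it over the 4 log2 ratios were 0.118, 0.133 and 0.137, among 13940 probes, and their mean log2 ratios were -0.40, -0.40 and -0.49.

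The genes around these members were described by lists, with 1 probe per gene and genes at background in every channel left out. No gene of the lists of p53 regulators, other p53 targets, other growth arrest genes, GADD45 partners, the sestrin and mTORC1 pathway, proliferation, the integrated stress response or FOXO targets was called in either direction. Over all genes, 22 names had a probe called higher and 50 a probe called lower.

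The p53 regulators (10 of 10 above background) had a median log2 ratio of -0.035. Trp53, which encodes p53, had log2 ratios of 0.33 and -0.62 in the greater weight loss pool and -0.19 and -0.61 in the less weight loss pool, a mean of -0.27 ± 0.18 (SD, n = 2 GALP pools). Its relative Trp73 had a mean of -0.17, with a sign that followed the dye (0.27 and 0.42 with GALP in Cy5). The phosphatase gene Ppm1d had 0.26. The checkpoint kinase gene Chek1 was well above background in 1 of 8 channels, and no ratio is given. The other p53 targets (21 of 24 above background) had a median of 0.014, with 12 means above 0 and 9 below. Phlda3, an inhibitor of AKT, was highest at 0.34 ± 0.29, with 0.55 in the greater weight loss pool and 0.14 in the less weight loss pool. Pidd1 was well above background in 2 of 8 channels, and no ratio is given. The proapoptotic Bbc3 (PUMA) was lowest at -0.30 ± 0.32, with -0.080 and -0.53 in the pools, and the kinase gene Plk2 had -0.23.

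The other growth arrest genes (17 of 18 above background) had a median of -0.061. Btg3, a relative of Btg2, had the highest mean, 0.44 ± 0.50, from 0.74 and 0.85 on the arrays of the greater weight loss pool and 0.20 and -0.035 on those of the less weight loss pool. Ccng2, a relative of Ccng1, had 0.19 ± 0.12, the antiproliferative gene Tob1 had -0.30 ± 0.059, and Cdkn2b was well above background in 2 of 8 channels. Among the partners of GADD45 proteins (8 of 9 above background, median 0.15), the p38 kinase activators Map2k6 and Map2k3 were higher than the control on all 4 arrays. Map2k6 had 0.46 and 0.41 in the greater weight loss pool and 0.49 and 0.48 in the less weight loss pool, and Map2k3 had a mean of 0.29 ± 0.11. The stress kinase gene Mapk8 had -0.21 ± 0.33 and the DNA glycosylase gene Tdg -0.18 ± 0.12.

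The sestrin and mTORC1 list (16 of 16 above background) had a median of -0.084, and 5 of its genes were lower on all 4 arrays, against 10.7% of all genes. The GATOR subunit genes Depdc5 and Mios had -0.24 ± 0.053 and -0.17 ± 0.0098, Tsc2 had 0.081, and Wdr59 was well above background in 2 of 8 channels. The proliferation genes (15 of 16 above background) had a median of 0.11, with 12 means above 0 and 3 below. The proliferation marker Mki67 had 0.37 and 0.51 in the greater weight loss pool and 0.37 and 0.56 in the less weight loss pool, and the helicase subunit genes Mcm3 and Mcm7 both had -0.11. Ccne2 was well above background in 2 of 8 channels.

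Among the 9 lists of members and related genes, the widest range was in the integrated stress response list (9 of 10 above background, median 0.17). Asns, the asparagine synthetase gene, had a log2 ratio of 2.00 on both arrays of the greater weight loss pool and 0.31 and 0.11 on those of the less weight loss pool. Atf3, a stress transcription factor gene, had 1.29 and 0.73, and 0.39 and 0.15. Gdf15, a stress hormone gene that is also a p53 target, had -0.46 ± 0.27, and Ddit3 had -0.36 ± 0.29. These 4 genes had the lower ratio in the less weight loss pool, but the median of the list was -0.16 in the greater weight loss pool and 0.19 in the less weight loss pool. Among the FOXO factors and targets (6 of 6 genes on the array), Foxo1 had 0.35 ± 0.085, G6pc had -0.41 ± 0.034, and Bcl6 had 0.16 in the greater weight loss pool and -1.15 in the less weight loss pool. Foxo4 was listed at 0 on 3 of 4 arrays and was well above background in 2 of 8 channels.

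**Figure D5:**
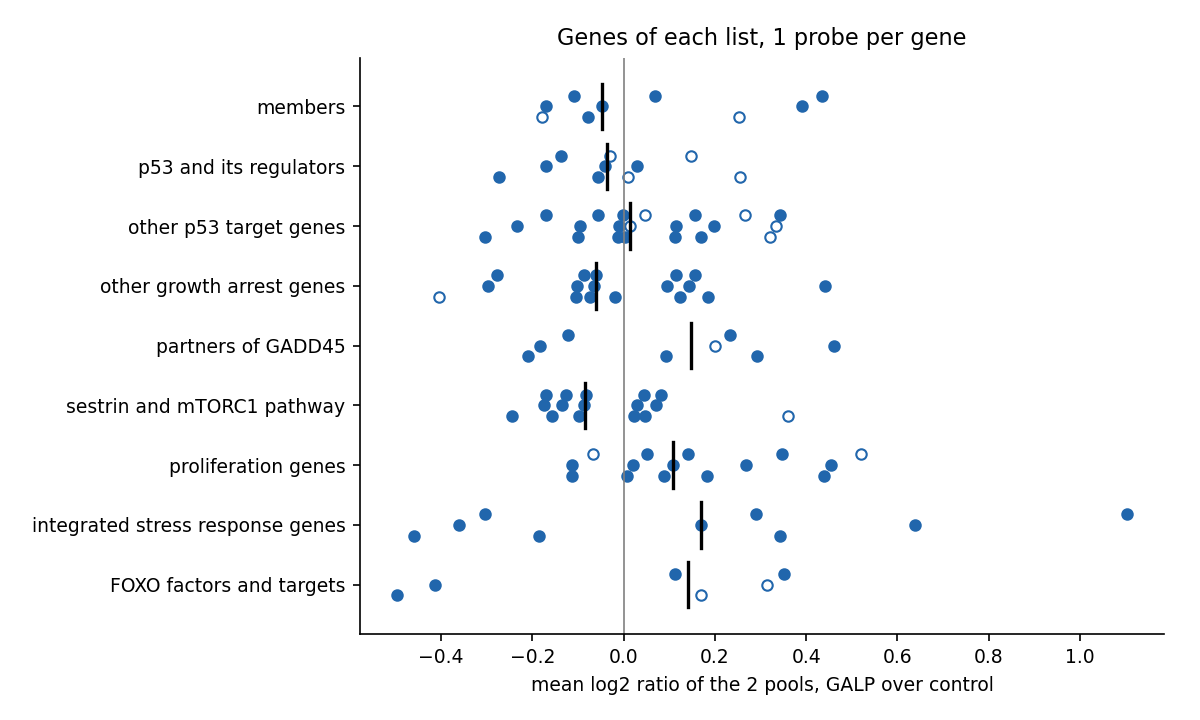
Mean log2 ratio of the 2 GALP pools over control (x axis) for each gene above background of the 9 lists (rows), 1 probe per gene. Open symbols were at background in some channel, and black bars are the list medians. The medians lie between -0.084 and 0.17, and the integrated stress response list is the widest, with Asns farthest to the right.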

How the data were processed

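Liver RNA was compared on 4 dual-colour Agilent arrays of 1 slide. Per the file headers, the authors scanned it and Feature Extraction 12.0.3.1 gave the processed intensity of each channel after background correction and LOWESS dye normalization (the submitters' processing notes give 11.0.1.1). The deposited log10 ratio is that of Cy5 over Cy3. The deposited p-value of each ratio comes from the error model of that software and compares the extracts of 1 array. An alternative was the deposited series table, which has these log10 ratios with GALP as the numerator.

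All ratios were put on the log2 scale with GALP as the numerator. Outlier-marked spots were dropped, repeated spots of a probe were averaged (median for p-values), and so were both arrays of a pool, which hold identical extracts and leave n = 2 replicates. The labels also give the control channel a weight loss group, but the study describes a single control pool, and its spread enters no test. The tests were the rule of the methods, read strictly, and limma 3.58.1 (R 4.3.3), as the 2 pool ratios against 0 with Benjamini-Hochberg adjustment over 41037 probes and 1 residual degree of freedom. The number of arrays limits the precision.

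All probes of the 9 members are named. Of each other list, genes with a called probe are named, or otherwise the 2 highest and 2 lowest above background, and the 3 genes with a pattern nearest to the member farthest from 0. The members and lists were chosen with earlier results of these data known. Probe positions are on mm9 per the file headers, and promoters are RefSeq's on GRCm38.p6. The alternatives were normexp (with an offset of 50 added to both channels) with loess, centring, the series table, no outlier filter and a signal filter. Further alternatives were other p and fold rules, single pools and single dye orientations, and for limma an intensity trend and the pool as a random block. Python 3.11.15 with numpy 2.4.6, pandas 2.3.3 and matplotlib 3.10.9, and data.table (version 1.17.8), were used.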

Additional observations from a re-analysis of the deposited data

Results flagged for a closer look

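Gadd45g was lower than the control on both arrays of the greater weight loss pool and higher on both arrays of the less weight loss pool, a difference of 0.57 in log2 ratio between the pools. The smallest of the 4 log2 ratios in absolute value was 0.0054, and the difference was not tested, since each pool is 1 extract.

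Ccng1 probe 2 was lower on both arrays of the greater weight loss pool and higher on both arrays of the less weight loss pool, a difference of 0.096. This difference was not tested either, and it is smaller than the Feature Extraction error of a single ratio of this probe (0.204 to 0.205). The share of all probes with such opposite directions in the pools was not counted, so neither pattern is set against a background.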

How the results depend on the processing

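The count of member genes called was 0 under 10 of 12 alternatives. It was 1 without the p-value (Gadd45b probe 2, dim) and 1 with only the arrays with GALP in Cy5 (Gadd45b probe 1), and 0 with each pool left out. Over all probes, 9 were called higher and 26 lower after normexp with loess, 53 and 167 when 1 array of each pool sufficed for the p-value, 154 and 360 without it, and 3 and 24 at a fold over 2 or under 0.5. The counts were 134 and 140 with only the arrays with GALP in Cy5, 140 and 156 with only those with GALP in Cy3, and 96 to 122 higher and 150 to 162 lower with a pool left out. These use fewer arrays or looser rules. By limma 42 probes were higher and 53 lower after normexp with loess, 1 was lower among the 15713 probes above background and 2 were lower with the pool as a random block, none of them a member probe. The smallest adjusted p of a member was 0.131 over these settings (Gadd45b, random block). The consensus correlation between the arrays of a pool in the random block fit was -0.39, and a negative value makes the standard error smaller. The cause of the normexp counts was not tested.

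The median log2 ratio of the members was -0.017 after normexp with loess, -0.045 after centring, -0.050 and -0.045 with only the arrays with GALP in Cy5 or Cy3, and -0.077 with all probes of a gene averaged. It lay between -0.0039 and -0.0025 with a pool left out, below 0 in each case. Among the member probes, Ccng1 probe 2 changed sign after normexp with loess (-0.020), and no other did under that setting, centring, the series table or no outlier filter. Normexp with loess moved Gadd45a to 0.015, Gadd45b to 0.10 (probe 1) and 0.080 (probe 2), Btg2 probe 3 to -0.089 and Cdkn1a to 0.28. The offset of 50 in that setting pulls the ratios of dim probes toward 0 by design. These smaller values therefore cannot show whether the ratios of dim probes hold. The sign differed from the reported one for 3 of 17 probes with GALP in Cy3 alone (Gadd45g, Sesn1 probe 2, Sesn2 probe 1) and for 1 with GALP in Cy5 alone (Mdm2 probe 2). Without the greater weight loss pool it differed for 2 probes (Gadd45g, Sesn2 probe 1). Without the less weight loss pool it differed for 1 (Ccng1 probe 2). No paired analysis was possible because each pool is 1 extract. Dim probes limit Gadd45a, Gadd45b probe 2, Mdm2 and Sesn1 probe 3, which were at background in at least 1 channel.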
